A study of Oryza sativa with 8 samples.

Results

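The genes described here make or break down 3 solutes linked to water shortage in plants: proline, trehalose and glycine betaine. They are 8 rice genes, chosen by identifier for their roles: P5CS1, P5CS2, P5CR and ProDH for proline, TPS1, TPP1 and TPP2 for trehalose, and BADH1 for betaine. Of these 8, 5 are among the 5827 genes listed in either of the 2 tables the authors deposited, 1 of them in both. The other 3 (P5CR, TPP2 and BADH1) are in neither table, so they had not been selected as changed and no value of theirs was analysed here.

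Rice (Oryza sativa) was grown hydroponically, and RNA of its leaf blades and leaf sheaths was sequenced. The groups used here were blade salt and sheath salt, taken from plants given 100 mM NaCl for 24 h, and blade control and sheath control, labelled only as controls. Each of the 4 groups had 2 samples, 8 in all, and the deposited tables give group values alone, with none for a single sample. The labels name no variety, genotype or plant age, and whether a group's 2 samples are from separate plants is not stated, so the p-values may measure technical spread only. The series addresses how a Japanese landrace tolerates sodium in its tissues.

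The blade table held 4623 genes with q-values up to 0.0499. The one for sheaths held 1998 genes with adjusted p up to 0.004. The listed blade genes summed to a mean of 9995664 reads in salt samples and 10745825 reads in control samples, while sheath depth is unknown. All 3 leaf mesophyll markers looked for (RBCS, CAB2R and RCA) were in the blade table, with salt and control means of 8022 to 53569 TPM (a level corrected for gene length and sequencing depth). None of these 3 was in the sheath table, and the shoot meristem marker OSH1 was in neither. Since a table lists only selected genes, absence from it is not absence from the tissue. All 3 mesophyll markers were lower with salt in the authors' deposited blade table, at log2 fold changes between -1.09 and -0.21. As log2 ratios of mean TPM, RBCS was at -0.90 and CAB2R at -0.48, while RCA was nearly unchanged at -0.02. The part of any shift in cell makeup in the values below was not tested. In bulk samples, fewer cells of a type and less RNA per cell cannot be told apart.

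Proline is made from glutamate by P5CS, the enzyme that sets the pace of the pathway, and then by P5CR. ProDH oxidises it in mitochondria, and in Arabidopsis the ProDH transcript is known to fall under osmotic stress and to rise on recovery. Trehalose is made by TPS, which forms trehalose-6-phosphate, a signal of sugar supply, and by TPP, which removes the phosphate. BADH oxidises betaine aldehyde to glycine betaine, of which rice accumulates little. The reference name table has the names P5CS1, P5CS2, TPP1, TPP2 and BADH1 on the chromosomes that their identifiers state, which makes 5 of 8. The names P5CR, ProDH and TPS1 were not in that table and rest on the list of identifiers alone.

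In leaf blades with salt, both proline synthesis genes that were listed rose and both trehalose synthesis genes that were listed fell. P5CS2 rose 2.23-fold and P5CS1 1.48-fold, while TPP1 fell to 0.509 and TPS1 to 0.648 of control by the authors' deposited table. The 2 higher and 2 lower members, 4 in all, stand beside a table in which 51.7% of genes were higher and 48.3% lower overall. Their median log2 fold change was -0.03, against 0.27 for all listed blade genes. It lies midway between a member that rose and a member that fell, so it describes neither. In leaf sheaths 2 members were listed, 1 higher (ProDH) and 1 lower (TPP1), beside 45.6% of listed genes higher and 54.4% lower. The median of those 2 was -0.04, against -0.65 for all listed sheath genes, and it too describes neither member. Of the 2, 0 reached a listed log2 fold change of 1 in size, which 38.1% of listed sheath genes did, although ProDH was past it as statistic times standard error (1.17) and as a ratio of levels with nothing added (1.14).

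P5CS1 (Os05g0455500), the main P5CS transcript in these blades, averaged 30.5 TPM in salt blades and 17.0 TPM in control blades in the authors' deposited table. These rest on 2663 reads in the salt group and 1649 reads in the control group, counted over 2 libraries each. The authors' deposited table gives P5CS1 a log2 fold change of 0.56 with q = 4.1e-07. An exact (Clopper-Pearson) 95% counting interval of its read ratio, brought to the scale of the listed fold changes, ran from 1.39-fold to 1.57-fold and covers counting error only. The rise was of modest size among listed genes, since 35.4% of the 2392 blade genes that rose had a smaller one. As a ratio of mean TPM its log2 change was 0.84, and as a ratio of mean reads it was 0.69. A listed blade fold change lay a median of 0.19 below the log2 TPM ratio and 0.13 below the log2 read ratio. P5CS1 thus lay further than the median gene from its TPM ratio, and about as far as the median gene from its read ratio.

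P5CS2 (Os01g0848200), the second copy of the synthesis gene, averaged 3.60 TPM in salt blades and 1.41 TPM in control blades in the authors' deposited table. It is thus the smaller source of P5CS transcript in both groups, at 10.6% of the summed P5CS level in TPM in salt blades and 7.64% in control blades. Its reads numbered 346 in the salt group and 142 in the control group, which makes it the least deeply covered member of the blade table. The authors' deposited table lists a log2 fold change of 1.16 with q = 1.3e-04 for P5CS2, and the counting interval ran from 1.83-fold to 2.73-fold. This interval and that of P5CS1 did not overlap, but both cover counting error only and leave out the spread between samples. The difference between the fold changes of the 2 genes was not tested over samples. P5CS2 was the 1 member of 4 in blades past a log2 fold change of 1 in size, a size that 32.3% of listed blade genes reached. Together the 2 genes summed to 34.1 TPM in salt blades and 18.4 TPM in control blades, and P5CS1 made up most of that sum and of its difference.

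P5CR, which completes proline synthesis, was in neither table. ProDH, the breakdown enzyme, was not in the blade table, so in blades no fold change of breakdown can be set beside the rise of synthesis. The blade table lists changes of the size ProDH had in sheaths and smaller, since 57.8% of the blade genes that rose had a listed log2 fold change of at most 0.91. That listed sheath value understates the change, as described below. ProDH was also low in sheaths, where 9.61% of listed genes had a lower control level. Its absence from the blade table thus does not show that it was unchanged there. The blade level of ProDH was not analysed here.

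**Figure D1:**
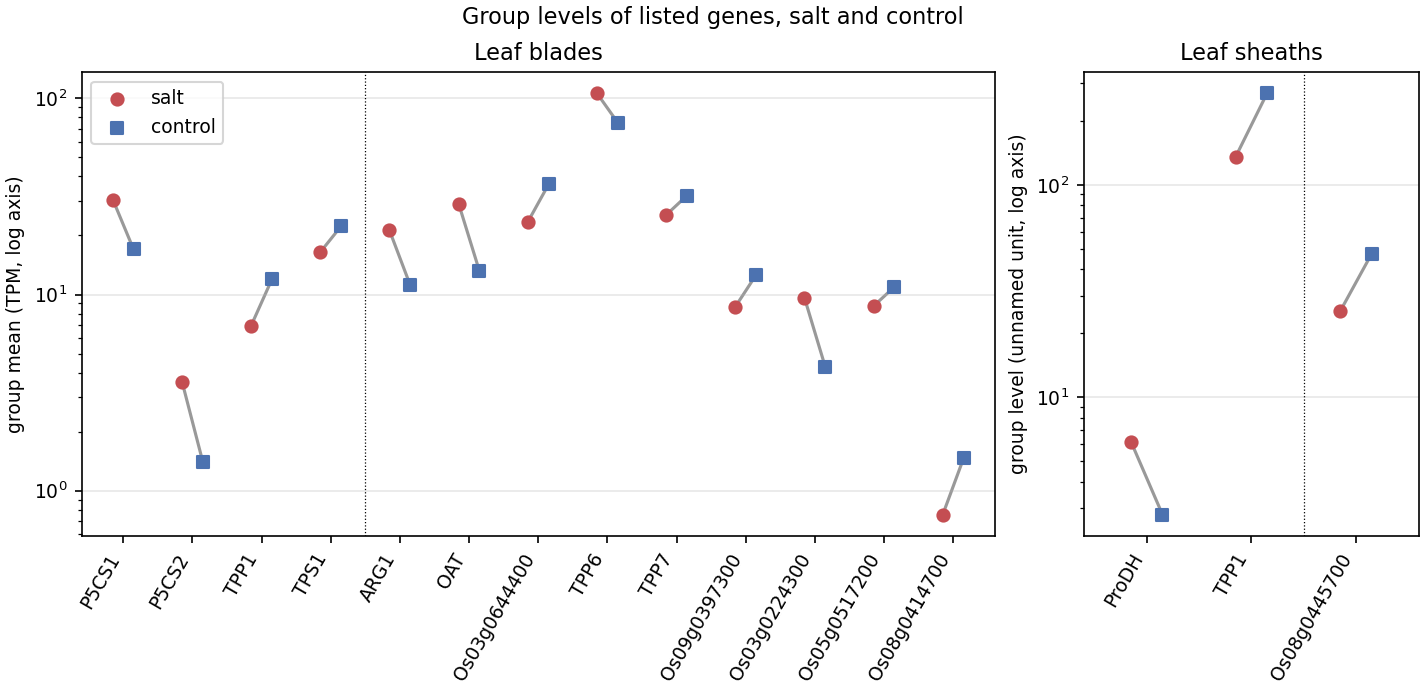
Levels of the listed genes, with salt (circles) left of control (squares) for each gene and the members left of the dotted line. The left panel gives group means of 2 blade samples in TPM and the right panel sheath group levels of unnamed unit, both on log axes and with no error since no value per sample is given. P5CS1 and P5CS2 stood higher with salt and TPP1 and TPS1 lower in blades, and ProDH higher and TPP1 lower in sheaths.

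In leaf sheaths the one proline gene listed was that of breakdown. ProDH (Os10g0550900) had a level of 6.17 in salt sheaths and 2.81 in control sheaths in the authors' deposited table, whose header names no unit. The authors' deposited table lists its log2 change as 0.91, at adjusted p = 8.5e-04. In this table the listed value equals log2 of (salt level + 1) over (control level + 1), within 0.002, for all 1998 genes, which understates the change of a gene at low level. The tested estimate, recovered by multiplying the statistic by its standard error (0.284), was 1.17 with a 95% normal interval of 0.61 to 1.73. That standard error was larger than those of 82.0% of listed sheath genes. P5CS1, P5CS2 and P5CR were not in the sheath table. Of the 911 sheath genes that rose, 4.28% had a listed log2 fold change of at most 0.56, the size P5CS1 had in blades, and 64.2% had one of at most 1.16, that of P5CS2. Rises as small as that of P5CS1 were thus rare in the sheath table. Rises up to the size of P5CS2 were not rare there, but listed sheath values understate changes at low level, and its sheath level was not analysed. No difference between the tissues in proline synthesis can be read from the absence of these genes there.

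TPS1 (Os05g0518600), which forms trehalose-6-phosphate, averaged 16.5 TPM in salt blades and 22.3 TPM in control blades by the authors' deposited table. The means rest on 1645 reads in the salt group and 2325 in the control group. It has a log2 change of -0.63 there with q = 4.6e-08 (the authors' deposited table), and the counting interval of the ratio was 0.608 to 0.690. TPS1 was not in the sheath table, where 5.89% of the 1087 genes that fell had a listed change as small as this or smaller.

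TPP1 (Os02g0661100), which turns trehalose-6-phosphate into trehalose, was the 1 member listed in both tissues, and it fell in each. In blades it averaged 6.94 TPM in salt samples and 11.96 TPM in control samples, on 396 and 715 reads, by the authors' deposited table. The listed log2 change of that deposited table was -0.98 with q = 2.0e-06, and the counting interval of the ratio was 0.447 to 0.574. Of the 2231 blade genes that fell, 72.8% fell by less. In sheaths the authors' deposited table gives TPP1 a level of 135 with salt and 269 in control, and a log2 change of -0.99 at adjusted p = 9.8e-07. The tested estimate was -0.96 with a standard error of 0.169 and a 95% normal interval of -1.29 to -0.63. The difference between tissues was not tested, and the tables differ in how they estimate a fold. Centred on the median of the listed genes of each table, the TPP1 values were -1.24 in blades and -0.34 in sheaths on the log2 scale. These lie further apart than the listed values. The medians (0.27 in blades, -0.65 in sheaths) rest on selected genes only, so that distance is not a measure of a difference between tissues.

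TPP1 fell by more than TPS1 in blades. The TPS1 level was 2.37 times that of TPP1 in salt blades and 1.86 times in control blades, both in TPM. TPP1 itself stood at 6.53% of the TPM of TPP6, a TPP gene described below, in salt blades and 15.9% in control blades. The ratio of TPS1 to TPP1 is thus not that of all TPS to all TPP transcript. The difference between the listed log2 fold changes of TPS1 and TPP1 was 0.35, and it was not tested over samples. Their counting intervals did not overlap, but these leave out the spread between samples. They do not show that the 2 genes differ in response. TPP2, a second trehalose phosphatase gene, was in neither table.

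**Figure D2:**
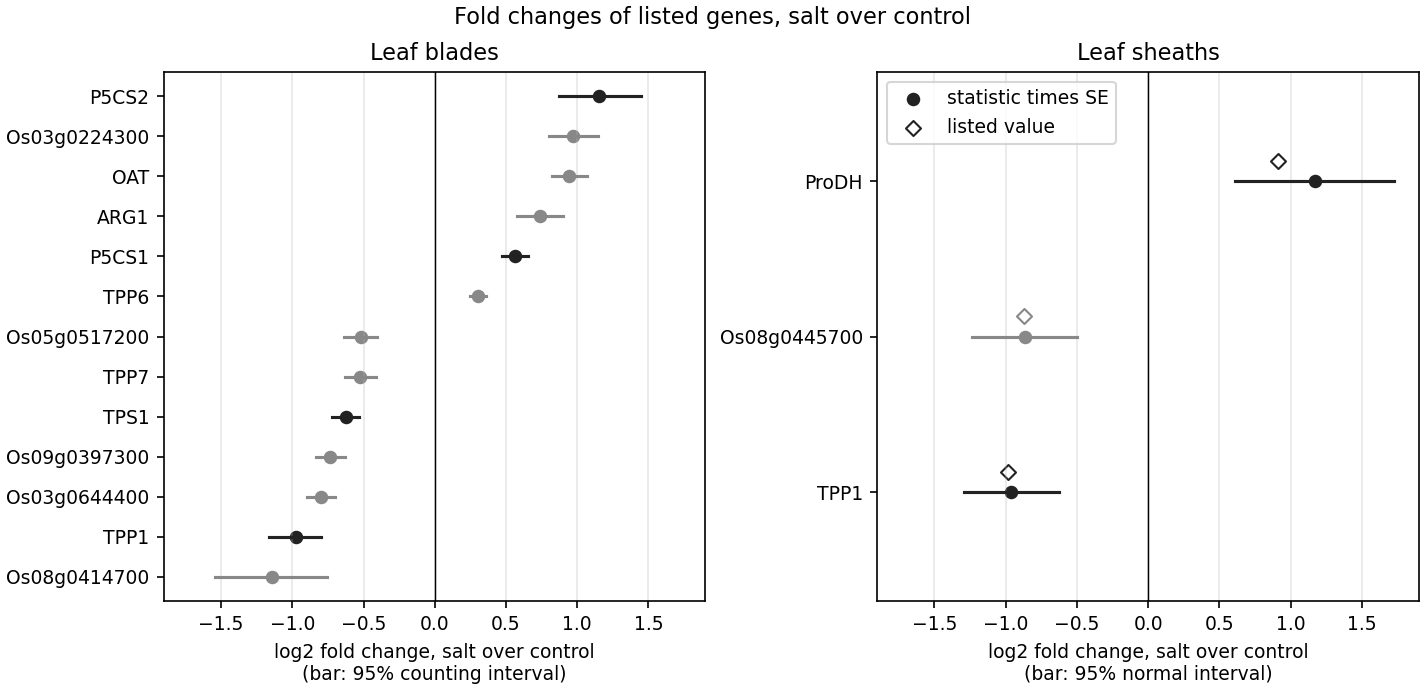
Log2 fold changes of listed members (black) and of the wider pathway list (grey), salt over control. In the blade panel, points are listed values and bars 95% counting intervals; in the sheath panel, filled points are statistic times standard error with 95% normal intervals and open diamonds listed values. None of the bars reaches 0, which largely follows from the selection of these genes as changed and adds no support. P5CS2 in blades (1.16) and TPP1 (-0.98 in blades, -0.99 in sheaths) lie furthest from 0 among the listed values of members.

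Few genes shared the pattern of TPP1. Of the 794 genes listed in both tables, 47, or 5.92%, were lower in both tissues, while 468 were higher in both. By distance over the 2 listed log2 fold changes, Os02g0203700 was the nearest of those genes to TPP1, at -0.97 in blades and -1.004 in sheaths by the authors' deposited tables. It averaged 13.8 TPM in salt blades and 24.8 TPM in control blades, and had a level of 36.3 in salt sheaths and 73.7 in control sheaths. This likeness rests on 2 comparisons and carries no name or function.

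**Figure D3:**
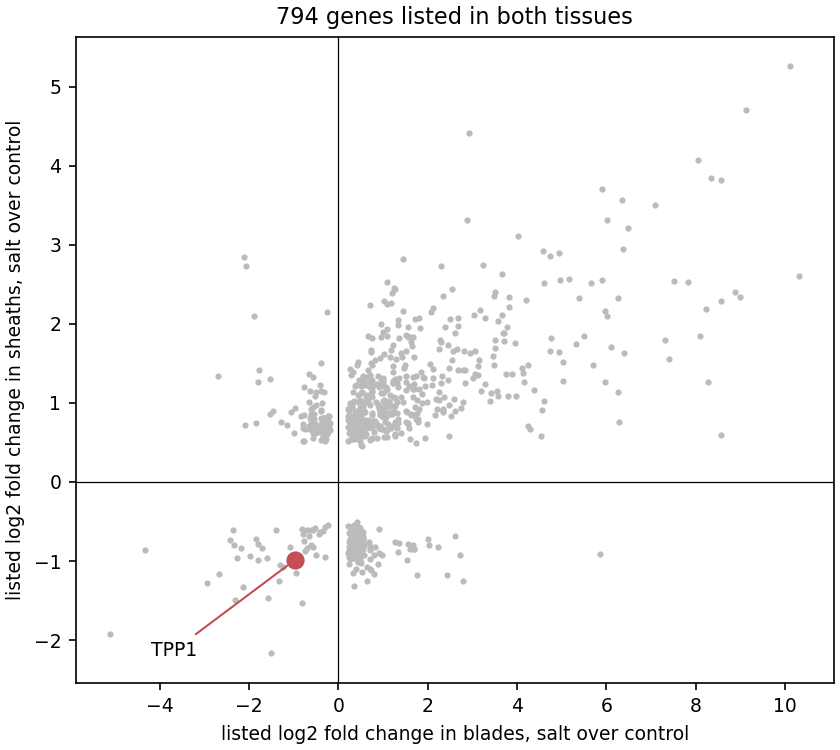
Listed log2 fold change in sheaths against that in blades for the 794 genes listed in both tables, salt over control, one point per gene. TPP1 lies in the lower left part, which holds 47 genes.

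A wider list of 24 genes of the same pathways, which covers the ornithine route to proline, proline transport, further TPS and TPP genes, trehalase and BADH2, had 9 members in the blade table. Of these 4 were higher and 5 lower, with a median log2 fold change of -0.52, beside 51.7% and 48.3% of all listed genes. The sheath table held 1 of the 24, Os08g0445700, which the authors' deposited table lists as lower, by a log2 change of -0.87 at adjusted p = 1.3e-04. Its level there was 25.5 in salt sheaths and 47.4 in control sheaths.

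Both genes of the ornithine route with a checked name rose in blades alongside P5CS1 and P5CS2. The wider list was chosen with earlier results of these data known, and only genes selected as changed are listed. The rise of these 2 genes is thus no independent support for that of P5CS1 and P5CS2. OAT (Os03g0643300), ornithine aminotransferase, which turns ornithine into the precursor that P5CR uses, averaged 29.0 TPM in salt blades and 13.2 TPM in control blades in the authors' deposited table. Its log2 fold change there was 0.94 with q = 8.7e-12, and the counting interval ran from 1.77-fold to 2.10-fold. ARG1 (Os04g0106300), arginase, which releases ornithine from arginine, averaged 21.2 TPM in salt blades and 11.2 TPM in control blades in the authors' deposited table. It had a listed log2 fold change of 0.74 with q = 3.3e-05 and an interval from 1.49-fold to 1.86-fold. The third listed member of this proline list, Os03g0644400, has no checked name and was lower, at 23.5 TPM in salt blades and 36.4 TPM in control blades, for which the authors' deposited table lists -0.80 on the log2 scale (q = 1.8e-12). With P5CS1 and P5CS2 included, the proline genes listed in blades came to 4 higher and 1 lower, beside 51.7% and 48.3% of all listed blade genes, too few genes to read a tendency from.

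Trehalose genes beyond the members moved both ways in blades. TPP6 (Os08g0409100) had the highest level of the listed TPP genes, at 106 TPM in salt blades and 75.3 TPM in control blades in the authors' deposited table, and a log2 change of 0.30 with q = 0.0023. Its log2 ratio of mean TPM was 0.50. TPP7 (Os09g0369400) averaged 25.4 TPM in salt blades and 32.0 TPM in control blades, and the authors' deposited table lists its log2 change as -0.52 with q = 9.8e-05, against a log2 TPM ratio of -0.33. Summed over TPP1, TPP6 and TPP7, the TPP level was 139 TPM in salt blades and 119 TPM in control blades. The log2 ratio of the summed TPM was 0.22, and that of the summed reads, brought to the scale of the listed fold changes, was 0.04. The fall of TPP1 thus went with a summed level of these 3 genes that was not lower with salt.

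The remaining 4 listed members of the trehalose list have no checked name. Os03g0224300 was higher, at 9.63 TPM in salt blades and 4.29 TPM in control blades and, per the authors' deposited table, 0.97 on the log2 scale. Os08g0414700, Os09g0397300 and Os05g0517200 were lower, and the authors' deposited table puts them at -1.14, -0.73 and -0.52 on the log2 scale. Of these Os08g0414700 was low, with 84 reads in the salt group and 170 in the control group. With TPS1 and TPP1 included, the trehalose genes listed in blades came to 2 higher and 6 lower, beside 51.7% and 48.3% of all listed blade genes, again too few to read a tendency from. BADH2, the second betaine aldehyde dehydrogenase gene, was in neither table, so neither betaine gene of the lists had a value.

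**Figure D4:**
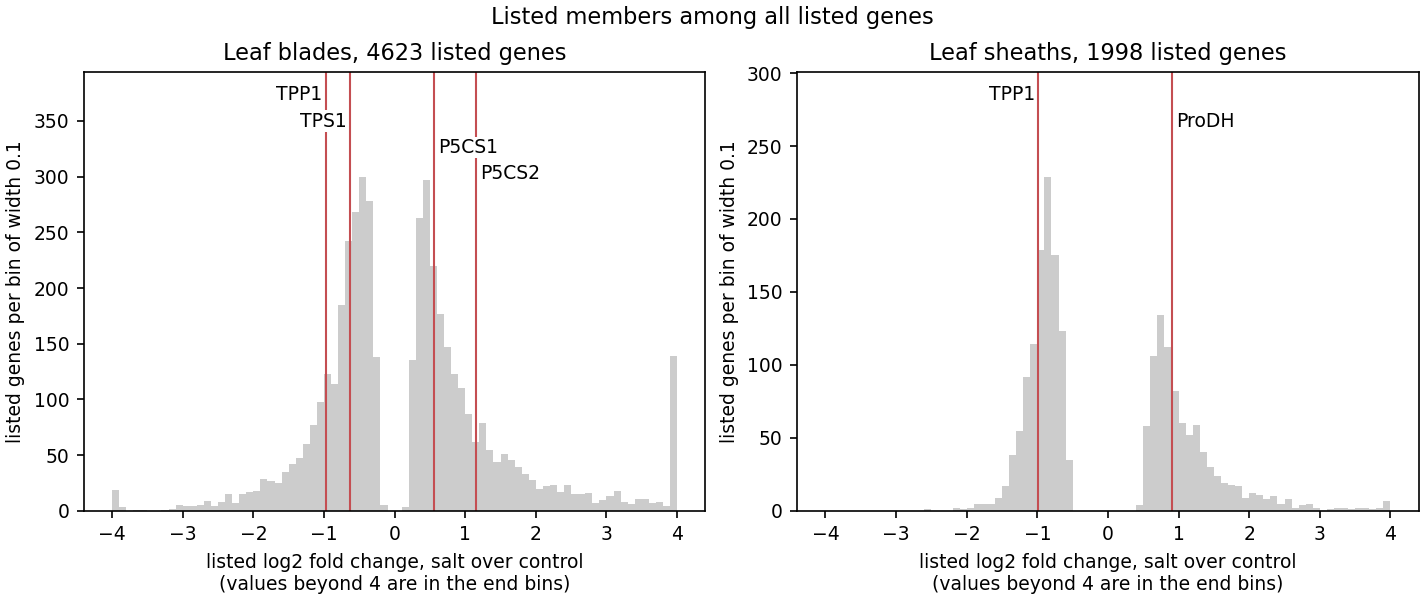
Histograms of all listed log2 fold changes in blades (left, 4623 genes) and sheaths (right, 1998 genes), salt over control, with the listed members as vertical lines. The members lie within the bulk of each histogram, and the gap around 0 is wider in sheaths, where the smallest listed change in size was 0.456, than in blades, where it was 0.165.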

How the data were processed

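Per the labels' protocols, DNase-treated total RNA went into libraries with an mRNA kit. The submitters' processing notes name HISAT, with no role, and the mouse build mm10, which cannot be that of these rice identifiers; which build, counter and test were used is not given in the sources used here. Per the file headers, the authors' blade table holds group means in TPM, FPKM and reads beside a log2 fold change and a q-value. The deposited reads are means of estimated counts, since 5.58% of blade genes had values that no pair of whole counts gives; those of the listed members could all come from whole counts. The deposited sheath table holds a log2 fold change, an expression signal of unnamed unit per group, a standard error, a test statistic (a score) and p-values, per the file headers. The column Case1 was taken as blade salt, the other blade group.

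No test across genes was made here, because the tables give no value per sample. Computed were counts per direction, log2 ratios, statistic times standard error, and Clopper-Pearson intervals of reads summed over the 2 libraries of a group, shifted by the median offset of listed fold changes. All 8 members are named; genes of the wider list are named only where the reference name table (assembly ASM3414082v1, names only) has that name on the stated chromosome. It held 0 of the listed identifiers. Of 8 pairs of such names on a chromosome, 1 was out of order (TPP3 and TPP10, in neither table). The members and lists were chosen with earlier results of these data known. Software was SciPy 1.17.1, numpy 2.4.6 and pandas 2.3.3 under Python 3.11.15, with matplotlib 3.10.9 for plots.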

Additional observations from a re-analysis of the deposited data

How the results depend on the processing

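All 6 listed values of members kept their direction under each other estimate tried. In blades all 4 listed members passed a stricter q limit of 0.001, while the wider list went from 4 to 3 higher and from 5 to 4 lower. TPP6 (q = 0.0023 in the authors' deposited table) and Os08g0414700 (q = 0.0080) did not pass. By q they ranked 2848 and 3392 of the 4623 listed blade genes. In sheaths ProDH (0.91 on the log2 scale, adjusted p = 8.5e-04 in the authors' deposited table) did not pass a stricter limit of 0.0001. That limit left 0 members higher there, and 0 genes of the wider list lower, since Os08g0445700 did not pass it. By adjusted p, ProDH ranked 1443 and Os08g0445700 ranked 1040 of the 1998 listed sheath genes. The genes ranked after them did not pass either, so the loss is not particular to these 2 genes. When a size of at least 1 on the log2 scale was required, 1 member was higher and 0 were lower in blades. In sheaths 0 members were higher and 0 lower by the listed value. ProDH passes at 1.17 as statistic times standard error and at 1.14 as a level ratio with no pseudocount. The 9 wider-list genes in the blade table then had 0 higher and 1 lower, and the 1 in the sheath table did not pass. That size was reached by 32.3% of all listed blade genes and 38.1% of all listed sheath genes. Centred on the median of listed genes, which rests on selected genes only, P5CS1 was at 0.29 and P5CS2 at 0.89, TPS1 at -0.89 TPP1 at -1.24 and TPP6 of the wider list at 0.03 in blades, and ProDH at 1.56 and TPP1 at -0.34 in sheaths. Leaving out a sample was not run, since only group means were at hand. No paired analysis was possible because the tables hold group means and no value per replicate number. The depth of P5CS2 (142 control reads) and of Os08g0414700 (84 salt reads) limits their values most among blade genes named.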

Other observations

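The reads behind each TPM differed between groups for P5CS1. It had 43.7 reads per TPM in salt blades and 48.5 in control blades, a salt over control ratio of 0.900. Over the 3836 listed blade genes with a mean of at least 50 reads in each group, the median of this ratio was 0.957, with a 5th to 95th percentile range of 0.948 to 1.02. For P5CS1, 0.730% of those genes had a lower ratio. P5CS2 was at 0.951, TPS1 at 0.959, TPP1 at 0.955 and OAT at 0.956. The ratio moves with the length or mix of transcripts counted for a gene and with how each group mean was taken, neither of which was tested.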
